A study of Mus musculus with 12 samples.

Results

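RNA was compared between MODE-K cells collected 48 h after 12 Gy of gamma radiation and unirradiated MODE-K cells. The members were chosen by sample label alone: 3 libraries of irradiated cells and 3 control libraries, 6 of the 12 libraries in the series, described across all genes in the count table. MODE-K is a line of mouse small-intestinal epithelial cells made permanent with the large T antigen of simian virus 40, a protein that binds p53 and the retinoblastoma protein. The labels give every group as wild type, with radiation from a cobalt source as the agent. The control cells were given 0 Gy and are labelled 0 h, so radiation and 48 h of further culture cannot be told apart in this comparison. Other cells of the line were collected 24 h after 12 Gy and 48 h after 4 Gy, also in 3 libraries each. The labels do not say whether the libraries of a group came from separate cultures, so p-values cover only how far the libraries spread, and that spread may be technical.

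Cells that sense viral or misplaced nucleic acid release type I interferons, which bind the receptor chains Ifnar1 and Ifnar2 and activate a complex that holds Stat2 and Irf9. This complex binds a short promoter sequence, the interferon-stimulated response element (ISRE), in front of genes for antiviral proteins, interferon-induced GTPases and class I antigen presentation. Separate pathways answer oxidants (Nfe2l2, called NRF2, freed from Keap1) and unfolded protein in the endoplasmic reticulum (ER), and p53 answers DNA damage.

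The 3 control libraries held 4831641, 3776038 and 3779351 reads and the 3 libraries from 48 h after 12 Gy held 3628034, 3724835 and 3616416. Values below are in CPM, read counts scaled to a common library size with trimmed-mean (TMM) factors. New loci that the authors added to the table took 19.8 to 21.7% of the reads in the controls and 14.04 to 15.15% 48 h after 12 Gy, and mitochondrial genes took 0.322 to 0.456% and 0.404 to 0.506%. Control replicate 1 stood apart from its group: its counts differed from those of controls 2 and 3 with a chi-square of 8.80 and 8.05 per degree of freedom, against 3.92 between controls 2 and 3 and 1.83 to 3.67 among the irradiated libraries. Of 12 markers of intestinal epithelium, 2 (Krt18 and Krt20) had enough reads to test, the summed level of the list was 8.57 to 12.5 CPM in the controls and 22.2 to 24.2 CPM after 12 Gy, and Cldn3, Cldn4, Cldn7 and Cdx1 had 0 reads in all 6 libraries, so the defining markers of the labelled tissue were near absent. Of 17 immune-cell markers 3 could be tested. Ptprc, Cd3e, Ms4a1, Adgre1, Tyrobp and Fcer1g had 0 reads in all 6 libraries, and the summed level of 25.6 to 31.9 CPM in the controls and 44.2 to 52.2 CPM after 12 Gy was largely Cd68 (15.7, 19.5 and 19.6 CPM, then 34.0, 37.4 and 33.5 CPM). In bulk RNA a change in the number of cells of a type and a change in RNA per cell cannot be told apart. Summed fibroblast markers stood at 177 to 205 CPM and 241 to 297 CPM, mostly Col1a2, and endothelial markers at 6.70 to 12.0 CPM and 16.5 to 20.6 CPM.

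Fewer known genes were called higher, and more called lower, when they were scaled apart from the new loci. With edgeR's quasi-likelihood test over all 15086 genes that passed the filter on low counts, 1945 genes (12.9%) were called higher 48 h after 12 Gy and 3050 (20.2%) lower, at a Benjamini-Hochberg adjusted p under 0.05. New loci made up 2611 of the lower calls and 122 of the higher ones, from 4898 tested, with a median log2 fold change of -0.91. Of the 9809 known genes tested there, 1790 were called higher (18.2%) and 367 lower (3.74%), with a median of 0.20. Known genes scaled and tested alone gave 664 higher calls (6.76% of 9816) and 789 lower (8.04%), with a median of 0.01. These are called the all-gene fit and the known-gene fit. With scaling factors taken from known genes and all genes tested, 840 known genes were higher and 974 lower. All 664 higher calls of the known-gene fit and 367 of its 789 lower calls were also made in the all-gene fit, and a known gene is said to have risen or fallen only where both fits called it. By this rule 664 known genes (6.76%) rose and 367 (3.74%) fell, shares to set beside the counts in the lists below. The change of scaling moved log2 fold changes of known genes by close to the difference between the medians.

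**Figure D1:**
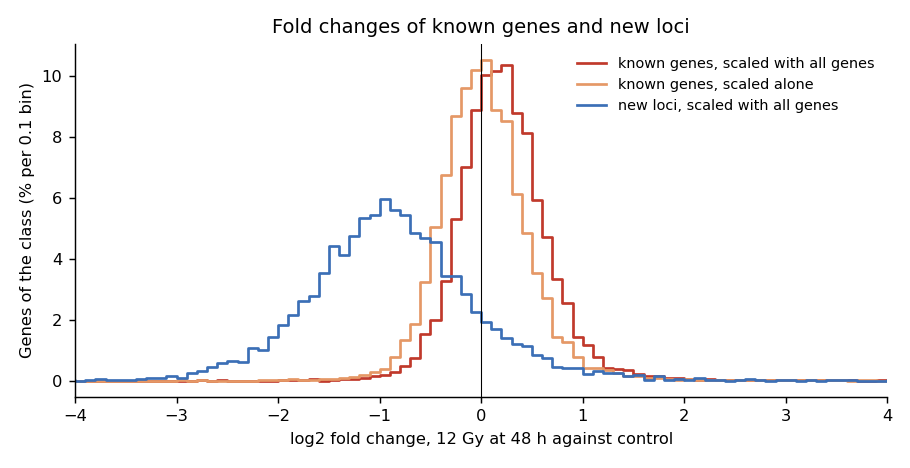
Distribution of log2 fold changes, 48 h after 12 Gy over control, as the percentage of genes in each bin of 0.1, for known genes in the all-gene fit, known genes scaled alone and new loci. The known genes centre on 0.20 in the all-gene fit and on 0.01 alone, and the new loci on -0.91.

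Of 250 named genes tested, 174 known genes rose or fell in this sense, and 114 of those kept both calls with any 1 of the 6 libraries left out. For a known gene below that is described with its fold change and is not among these 114, an adjusted p without 1 library is given. Tyk2, Rad51ap1, Spc25, Cisd1, Smad4 and F3, counted below without their values, also lost a call in 1 fit or both with a library left out. The fold changes and standard errors (SE) are from the all-gene fit unless the known-gene fit is named.

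Most antiviral effectors rose. Of 51 tested, 42 were called higher in the all-gene fit and 40 in the known-gene fit, with medians of 1.20 and 1.02, and none was called lower in the all-gene fit and 1 (Ifi27) in the known-gene fit. The calls were spread over the families: 3 of 5 Ifit genes, 7 of 9 genes of the Oas family and RNase L, 6 of 6 genes of the ISG15 system and 24 of 31 others rose. With 1 library left out, 31 to 41 were still called higher in the known-gene fit.

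Rsad2 encodes viperin, an enzyme that makes a chain-terminating nucleotide. It was at 4.08, 4.61 and 4.29 CPM in the controls and at 43.4, 49.7 and 64.3 CPM 48 h after 12 Gy (log2 fold change 3.59, SE 0.20, adjusted p = 2.86e-08). The lowest irradiated library was far above the highest control. Ifit3, an RNA-binding antiviral protein, was at 2.79, 4.10 and 3.48 CPM and then at 43.2, 49.7 and 64.6 CPM (log2 fold change 3.92, SE 0.26, adjusted p = 2.87e-07). Its near-identical neighbour Ifit3b went from 1.72, 1.02 and 1.88 CPM to 17.8, 15.5 and 24.3 CPM (log2 fold change 3.61, SE 0.37, adjusted p = 5.1e-06). Reads shared by these close copies could be assigned to either, so their separate sizes are uncertain. Cmpk2, a mitochondrial nucleotide kinase beside Rsad2 in the genome, had 1.72, 1.54 and 1.34 CPM and then 10.7, 8.91 and 14.4 CPM (log2 fold change 2.85, SE 0.40, adjusted p = 6.38e-05), with no overlap between the groups.

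The Oas enzymes make the short adenylate chains that switch on RNase L. Oas2 was at 15.3, 20.7 and 13.1 CPM in the controls and 37.9, 43.8 and 39.99 CPM after 12 Gy (log2 fold change 1.31, SE 0.16, adjusted p = 2.28e-05). Oasl1, a relative without that activity, was at 56.3, 86.3 and 61.6 CPM and then 224, 235 and 255 CPM (log2 fold change 1.81, SE 0.15, adjusted p = 1.03e-06). Both rose without overlap of the groups, though reads may be shared within the family. Isg15, a ubiquitin-like protein joined to other proteins, stood at 197, 379 and 232 CPM in the controls, where replicate 2 was the highest, and at 823, 877 and 1117 CPM after 12 Gy (log2 fold change 1.80, SE 0.19, adjusted p = 5.3e-06). Usp18, which removes Isg15 from its targets and damps the interferon receptor, stood at 69.0, 95.5 and 61.4 CPM and then at 154, 158 and 201 CPM (log2 fold change 1.18, SE 0.18, adjusted p = 0.000121). All irradiated values lay above all control values for both. Bst2 (tetherin), which holds budding virus at the cell surface, went from 480.3, 444 and 352 CPM to 1126, 1253 and 1324 CPM (log2 fold change 1.54, SE 0.13, adjusted p = 1.57e-06). Eif2ak2, the RNA-activated kinase PKR that halts translation, went from 15.3, 23.05 and 21.7 CPM to 44.2, 36.4 and 45.5 CPM (log2 fold change 1.08, SE 0.16, adjusted p = 0.000129). Neither gene's groups overlapped.

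Interferon-induced GTPases, which coat the membranes of intracellular pathogens, rose in most cases. Of 13 tested, 10 were called higher in the all-gene fit and 9 in the known-gene fit, with medians of 1.90 and 1.71, and none was called lower in either. Those called in both were 5 of 6 guanylate-binding proteins and 4 of 7 immunity-related GTPases. Gbp2 was at 3.65, 7.68 and 3.48 CPM in the controls and 27.7, 34.1 and 41.6 CPM after 12 Gy (log2 fold change 2.81, SE 0.25, adjusted p = 1.74e-06). Gbp3 was at 9.46, 16.4 and 5.89 CPM and then 57.8, 57.6 and 82.1 CPM (log2 fold change 2.63, SE 0.27, adjusted p = 5.1e-06). Gbp5 was at 14.6, 38.2 and 13.9 CPM and then 87.7, 110.0 and 145 CPM (log2 fold change 2.37, SE 0.32, adjusted p = 5.4e-05). Control replicate 2 was the highest control for all 3 guanylate-binding proteins, and still lay below every irradiated library. Tgtp1, an immunity-related GTPase with a close copy, went from 1.72, 2.30 and 1.34 CPM to 15.2, 18.3 and 21.4 CPM (log2 fold change 3.33, SE 0.36, adjusted p = 6.72e-06). Irgm1, a regulator of that family, went from 27.3, 38.4 and 29.2 CPM to 55.2, 51.7 and 65.3 CPM (log2 fold change 0.86, SE 0.16, adjusted p = 0.000598).

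The promoters of 5 genes that rose are shown because the ISRE is the element that the complex of Stat2 and Irf9 is known to bind. The 5 were taken from genes with a match, so they do not show how often a match occurs. The sequences are the 250 bases before the start of each gene in RefSeq's GRCm38.p6, 5′ to 3′ on the gene's own strand, with matches to the ISRE core GAAANNGAAA, read on either strand (as TTTCNNTTTC on the other), in capitals. They lie at chr4:156200819-156201068 (Isg15, minus strand), chr19:34583279-34583528 (Ifit3, plus), chr12:26456453-26456702 (Rsad2, minus), chr3:142620413-142620662 (Gbp2, plus) and chr11:48871421-48871670 (Irgm1, minus).
Isg15: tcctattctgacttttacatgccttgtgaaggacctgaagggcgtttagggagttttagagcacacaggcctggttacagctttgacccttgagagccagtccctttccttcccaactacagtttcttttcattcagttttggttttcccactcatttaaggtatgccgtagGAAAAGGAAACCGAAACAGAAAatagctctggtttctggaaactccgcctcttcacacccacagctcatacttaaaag
Ifit3: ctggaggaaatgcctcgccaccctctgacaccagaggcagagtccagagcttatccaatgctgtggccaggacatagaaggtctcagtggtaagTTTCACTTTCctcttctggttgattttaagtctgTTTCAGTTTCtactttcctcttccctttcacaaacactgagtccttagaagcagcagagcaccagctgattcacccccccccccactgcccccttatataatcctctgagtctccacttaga
Rsad2: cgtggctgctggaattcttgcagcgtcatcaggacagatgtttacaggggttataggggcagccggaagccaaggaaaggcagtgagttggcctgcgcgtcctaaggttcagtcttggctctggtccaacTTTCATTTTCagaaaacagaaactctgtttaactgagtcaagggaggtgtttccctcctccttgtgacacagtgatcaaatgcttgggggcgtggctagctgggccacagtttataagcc
Gbp2: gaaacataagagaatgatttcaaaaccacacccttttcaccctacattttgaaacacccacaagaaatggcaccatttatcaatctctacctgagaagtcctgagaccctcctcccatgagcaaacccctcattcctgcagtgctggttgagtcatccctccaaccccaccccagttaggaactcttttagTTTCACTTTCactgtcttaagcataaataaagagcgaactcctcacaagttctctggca
Irgm1: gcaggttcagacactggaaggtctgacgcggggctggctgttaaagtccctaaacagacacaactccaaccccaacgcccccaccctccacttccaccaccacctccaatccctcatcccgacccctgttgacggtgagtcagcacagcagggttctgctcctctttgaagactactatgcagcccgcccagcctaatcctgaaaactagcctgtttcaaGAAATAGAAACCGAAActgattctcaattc
Isg15 has 3 overlapping matches, the first starting 78 bases before the gene's start, Irgm1 has 2 overlapping matches, Ifit3 has 2 separate ones, and Rsad2 and Gbp2 have 1 each. RefSeq promoters matched 207 of the 267 named genes. Over windows of 300 bases (250 before and 50 after the start), the core was present in 3.44% of all 32851 promoters. By gene, it was present for 18 of 39 tested antiviral effectors with a promoter (46.2%), 9 of 10 interferon-induced GTPases (90.0%), 5 of 19 class I presentation genes (26.3%) and 5 of 18 nucleic acid sensing genes (27.8%), against 3.79% of tested known genes. It was also present for 2 of 18 genes of interferon signalling (11.1%), 7 of 62 cytosolic ribosomal protein genes (11.3%) and 2 of 41 lysosomal genes (4.88%), and in none of the 27 NRF2 target genes, 12 glutathione S-transferases or 24 ER genes with a promoter. Known genes called higher in both fits held the ISRE core for 9.25%, and those called lower in both for 3.79%. A match is a description of letters in this window, and binding was not measured.

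No ligand or receptor of the interferon pathway was called. None of 10 listed interferon ligands had enough reads to test, and none of 5 receptor chains was called in either fit. Ifnar1 was at 10.1, 9.22 and 10.4 CPM in the controls and 14.7, 14.3 and 8.89 CPM after 12 Gy, with overlap. Among kinases and STAT factors, Tyk2 and Stat2 rose. Stat2 stood at 14.6, 23.6 and 18.8 CPM and then at 44.7, 52.7 and 57.0 CPM (log2 fold change 1.45, SE 0.18, adjusted p = 2.44e-05). The groups did not overlap for this factor. Irf9, which joins Stat2 in the complex, was called higher in the all-gene fit only, from 21.5, 28.7 and 23.3 CPM to 37.4, 37.7 and 35.3 CPM (0.40, adjusted p = 0.136 in the known-gene fit). Irf7, which amplifies interferon genes and overlaps Phrf1, went from 79.7, 90.7 and 56.8 CPM to 249, 256 and 306 CPM (log2 fold change 1.83, SE 0.20, adjusted p = 8.35e-06). Irf1 went from 7.74, 12.5 and 8.57 CPM to 14.9, 19.9 and 18.03 CPM (log2 fold change 0.88, SE 0.20, adjusted p = 0.00362), and its known-gene adjusted p was 0.118 without 12 Gy 48 h replicate 2.

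Sensors of nucleic acid rose in part. Of 23 tested, 11 were called higher in the all-gene fit and 8 in both fits, and 1 fell. Zbp1, which binds left-handed nucleic acid and can start inflammatory cell death, was at 9.46, 9.22 and 6.43 CPM in the controls and 59.4, 65.5 and 78.9 CPM after 12 Gy (log2 fold change 3.01, SE 0.23, adjusted p = 7.29e-07). The lowest irradiated value was several times the highest control. Dhx58 (LGP2), a helicase that tunes the RNA sensors, went from 6.45, 9.99 and 8.04 CPM to 19.6, 19.9 and 19.3 CPM (log2 fold change 1.27, SE 0.21, adjusted p = 0.000248). The RNA sensor Ddx58 (RIG-I) went from 20.4, 25.4 and 19.6 CPM to 37.4, 35.1 and 43.1 CPM (log2 fold change 0.82, SE 0.15, adjusted p = 0.00077). The related sensor Ifih1 (MDA5) went from 7.52, 11.5 and 7.23 CPM to 19.4, 12.7 and 22.7 CPM (log2 fold change 1.06, SE 0.28, adjusted p = 0.00907), with a known-gene adjusted p of 0.169 without 12 Gy 48 h replicate 3. Of the genes that degrade or edit nucleic acid, Trex1, a DNA exonuclease that overlaps Atrip, was at 2.36, 3.33 and 1.88 CPM and then 7.85, 8.15 and 8.36 CPM (log2 fold change 1.67, SE 0.31, adjusted p = 0.000603). Adar, which deaminates adenosine in double-stranded RNA, was at 14.4, 14.9 and 12.9 CPM and then 25.6, 30.1 and 28.5 CPM (log2 fold change 1.00, SE 0.14, adjusted p = 9.12e-05). Samhd1, which depletes deoxynucleotides, was at 34.6, 37.1 and 39.7 CPM and then 57.8, 63.4 and 73.4 CPM (log2 fold change 0.81, SE 0.13, adjusted p = 0.000191). All 3 rose without overlap. The fall was in Rnaseh2b, a subunit of the enzyme that removes ribonucleotides from DNA, at 24.9, 19.2 and 19.6 CPM and then 13.1, 16.6 and 13.3 CPM (log2 fold change -0.57, SE 0.16, adjusted p = 0.013). Its all-gene adjusted p was 0.0676 without control replicate 1. Tmem173 (STING), the adaptor of the DNA sensor, was not called in either fit (36.3, 33.0 and 28.4 CPM, then 36.1, 43.3 and 47.8 CPM).

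Class I antigen presentation rose from surface chain to peptide loading. Of 22 genes tested, 16 were called higher in the all-gene fit and 13 in both fits, with medians of 0.74 and 0.55, and none was called lower. These were 6 of 8 heavy chain genes with B2m, 5 of 8 genes of peptide transport and loading and 2 of 5 of the immunoproteasome. The heavy chain H2-K1 was at 188, 269 and 185 CPM in the controls and 437, 441 and 421 CPM after 12 Gy (log2 fold change 1.02, SE 0.15, adjusted p = 8.95e-05). B2m, the light chain, was at 1705, 1935 and 1478 CPM and then 2337, 2942 and 2752 CPM (log2 fold change 0.65, SE 0.14, adjusted p = 0.00167), with a known-gene adjusted p of 0.129 without 12 Gy 48 h replicate 2. H2 heavy chains are near-identical, so reads could be split among them. Tapbp (tapasin), which holds class I at the peptide transporter and overlaps Zbtb22, stood at 26.2, 35.1 and 15.0 CPM and then at 77.5, 91.7 and 78.4 CPM (log2 fold change 1.69, SE 0.22, adjusted p = 3.58e-05). Psmb8, an immunoproteasome subunit, stood at 6.88, 13.3 and 8.04 CPM and then at 26.4, 30.3 and 27.7 CPM (log2 fold change 1.59, SE 0.23, adjusted p = 8.89e-05). The irradiated libraries of both genes lay above their controls. The transporter subunits Tap1 and Tap2 were called higher in both fits with all libraries (log2 fold changes 0.74 and 0.63). Their known-gene adjusted p rose to 0.074 without control replicate 3 for Tap1 and to 0.126 without control replicate 3 for Tap2. Nlrc5, the transactivator of class I genes, was not called (1.72, 3.59 and 1.07 CPM, then 3.92, 4.33 and 2.61 CPM), and none of 10 class II genes had enough reads to test.

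Few secreted mediators passed the filter on low counts. Of 47 listed chemokines and cytokines 17 could be tested and 3 rose. This count leaves out the chemokine Ccl4, which was not on the list and also rose (see Other observations). Ccl5, which attracts T cells, was at 14.6, 23.3 and 11.3 CPM in the controls and 87.7, 103 and 81.3 CPM after 12 Gy (log2 fold change 2.46, SE 0.25, adjusted p = 5.08e-06). Cxcl10, a ligand of Cxcr3, was at 7.74, 16.6 and 4.29 CPM and then 31.7, 38.0 and 43.4 CPM (log2 fold change 1.98, SE 0.30, adjusted p = 0.000138). Il15, a survival factor of lymphocytes, was at 2.79, 3.33 and 1.61 CPM and then 8.90, 8.40 and 8.36 CPM (log2 fold change 1.71, SE 0.29, adjusted p = 0.000318). No irradiated library of these 3 genes overlapped the controls. Cxcl1, a neutrophil attractant, was not called (40.2, 694 and 43.4 CPM, then 85.3, 113 and 89.9 CPM). Control replicate 2 stood far above the other controls. Without control replicate 2 Cxcl1 was still not called in the known-gene fit (log2 fold change 1.03, adjusted p = 0.442). Complement factor B (Cfb) went from 0.430, 0.768 and 0.268 CPM to 4.45, 7.39 and 8.10 CPM (log2 fold change 3.68, SE 0.49, adjusted p = 4.1e-05), at very low counts in the controls. The acute-phase gene Lcn2 was called lower, but the call rested on control replicate 2 (21.5, 259 and 52.0 CPM, then 21.5, 23.2 and 6.011 CPM), and its known-gene adjusted p was 0.17 without control replicate 2.

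**Figure D2:**
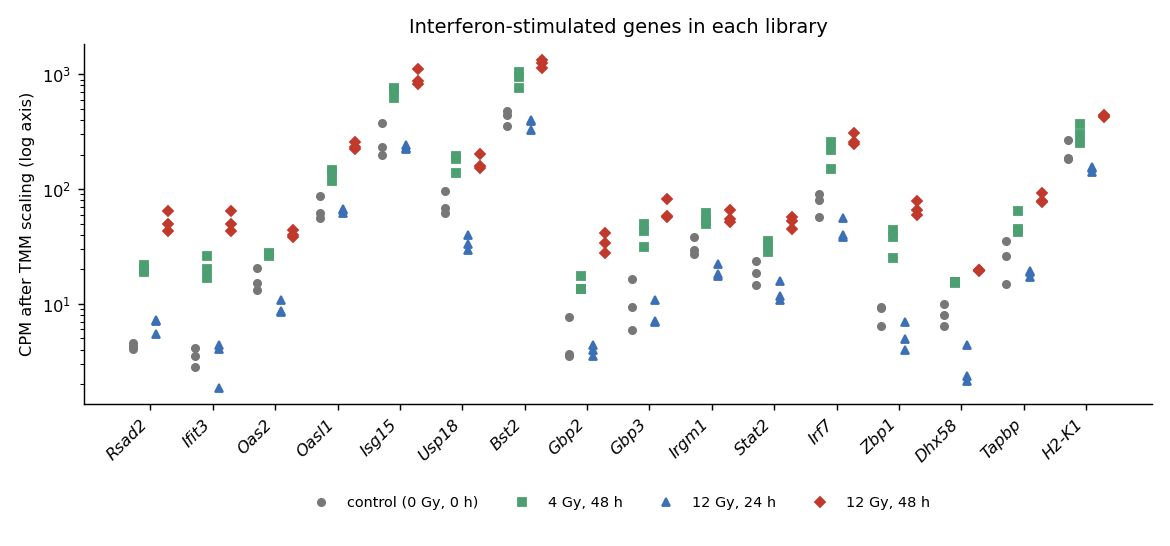
CPM on a log axis for 16 interferon-related genes in every library of the 4 groups, 1 point per library. For Rsad2 the controls lie at 4.08 to 4.61 CPM and the 48 h libraries after 12 Gy at 43.4 to 64.3 CPM, with the 24 h libraries at 5.51 to 7.29 CPM.

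Most interferon-related genes stood higher at 48 h than at 24 h after 12 Gy. The contrasts of 48 h with 24 h after 12 Gy and of 12 Gy with 4 Gy at 48 h share the 12 Gy 48 h libraries with the main comparison, so they are given as values side by side. Among known genes alone, 1090 (11.1%) were called higher at 48 h than at 24 h and 1240 (12.6%) lower, and 286 (2.91%) were higher after 12 than after 4 Gy and 316 (3.22%) lower. The contrast between the doses depended on single libraries: its 707 calls over all genes fell to 77 without 12 Gy 48 h replicate 2, to 200 without 4 Gy replicate 3 and to 248 without 12 Gy 48 h replicate 1, and were 388 to 431 with each of the others left out. Counts of members and single genes between the doses were not refitted in this way. Of the 51 antiviral effectors, 42 were higher and 1 lower at 48 h than at 24 h, and 8 were higher after 12 Gy than after 4 Gy. Of the 13 interferon-induced GTPases, 13 were higher at 48 h than at 24 h and 3 higher after 12 than after 4 Gy. For the 22 class I genes these counts were 17 and 4, with none lower in either contrast.

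Against the controls, the 24 h libraries gave 2 antiviral effectors higher and 20 lower in the known-gene fit, and 10 class I genes lower. Over all known genes 898 (9.15%) were higher and 776 (7.91%) lower in that comparison. Irf7 was at 38.5, 40.2 and 56.0 CPM 24 h after 12 Gy, below the controls, and differed from 48 h by a log2 fold change of 2.59 (adjusted p = 8.33e-07). Rsad2 was at 7.17, 5.51 and 7.29 CPM at 24 h, a little above the controls, and differed by 2.97 (adjusted p = 1.16e-07). Psmb9, an immunoproteasome subunit that overlaps Tap1, was at 3.98, 2.48 and 0.292 CPM at 24 h, against 6.88, 8.96 and 6.43 CPM in the controls and 14.1, 12.7 and 13.1 CPM at 48 h. It differed between the times by 2.52 (adjusted p = 0.000124), while its call against the controls was lost in the known-gene fit (adjusted p = 0.139).

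Between the doses at 48 h, part of the group differed. Rsad2 was at 18.95, 21.96 and 20.2 CPM after 4 Gy, between the controls and 12 Gy, and the 12 Gy libraries exceeded it by a log2 fold change of 1.36 (adjusted p = 0.000815). Gbp2 was at 17.7, 13.6 and 13.5 CPM after 4 Gy and higher after 12 Gy by 1.21 (adjusted p = 0.00772). Cfb was at 1.30, 1.48 and 1.62 CPM after 4 Gy and higher after 12 Gy by 2.16 (adjusted p = 0.00949). For Usp18 no difference was detected. It was at 181, 138 and 196 CPM after 4 Gy and differed by -0.01 (adjusted p = 0.991). The 4 Gy and 12 Gy values of Usp18 overlapped.

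Enzymes of the NRF2 antioxidant response rose in part, and the factor itself was not called. Of 33 tested, 18 were called higher in the all-gene fit and 10 in both fits, and Akr1b8 was called lower in the known-gene fit alone, with medians of 0.40 and 0.21. Nfe2l2 itself was at 35.2, 34.6 and 41.3 CPM in the controls and 33.5, 37.4 and 42.9 CPM after 12 Gy, and was not called. Its inhibitor Keap1 was not called either (18.9, 17.4 and 20.1 CPM, then 26.2, 18.8 and 25.4 CPM). Nqo1, which reduces quinones, stood at 6.45, 12.8 and 5.36 CPM and then at 33.0, 46.1 and 23.8 CPM (log2 fold change 2.07, SE 0.29, adjusted p = 6.85e-05). Osgin1, an oxidative stress growth inhibitor, stood at 3.87, 3.07 and 1.88 CPM and then at 11.8, 17.1 and 13.6 CPM (log2 fold change 2.23, SE 0.27, adjusted p = 1.87e-05). Control and irradiated values were apart for both genes. Srxn1, which repairs peroxiredoxins, went from 48.8, 46.4 and 34.6 CPM to 85.0, 83.5 and 67.4 CPM (log2 fold change 0.86, SE 0.16, adjusted p = 0.000587). Pgd, an enzyme of the pentose phosphate route that makes NADPH, went from 73.1, 90.9 and 67.8 CPM to 153, 157 and 154 CPM (log2 fold change 1.00, SE 0.13, adjusted p = 3.25e-05). Txnrd1, thioredoxin reductase, went from 88.5, 113 and 87.6 CPM to 158, 147 and 140.3 CPM (log2 fold change 0.62, SE 0.12, adjusted p = 0.00115), with a known-gene adjusted p of 0.104 without control replicate 3. Gclc and Gclm, the subunits of the enzyme that limits glutathione synthesis, were called in the all-gene fit only (known-gene adjusted p = 0.12 and 0.153).

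An antioxidant response element core, TGACNNNGC on either strand (GCNNNGTCA on the other), was present in 12.4% of all promoters and in 12 of the 27 NRF2 genes with a promoter (44.4%), against 17.2% of tested known genes. The rise of Txnrd1 lost its known-gene call without control replicate 3, as given above. Its promoter, at chr10:82858956-82859205 (plus strand), is shown as 1 example, with the match, read on the other strand, in capitals.
Txnrd1: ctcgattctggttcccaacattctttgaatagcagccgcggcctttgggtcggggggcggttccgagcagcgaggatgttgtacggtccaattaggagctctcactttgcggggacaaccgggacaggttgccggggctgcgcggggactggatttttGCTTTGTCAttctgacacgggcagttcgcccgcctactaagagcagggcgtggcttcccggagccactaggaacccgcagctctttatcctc
The match starts 92 bases before the start of the gene. Of 12 glutathione S-transferase genes with a promoter 1 held this core. It was also present for 25% of ER genes, 24.4% of lysosomal genes, 21.1% of class I genes and 19.4% of cytosolic ribosomal protein genes. Antiviral effectors held it for 17.9%, nucleic acid sensing genes for 16.7%, interferon signalling genes for 11.1% and interferon-induced GTPases for 2 of 10. Known genes called higher in both fits held it for 19.2%, and those called lower in both for 16.6%.

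Glutathione S-transferases, which join glutathione to electrophiles, were called higher for 9 of 13 in the all-gene fit and 5 of 13 in both fits, and Gsto2 was called lower in the known-gene fit alone. Gsta1 was at 2.15, 11.5 and 4.29 CPM in the controls and 49.5, 59.6 and 24.3 CPM after 12 Gy (log2 fold change 2.92, SE 0.43, adjusted p = 0.000105), with wide spread in both groups. Gsta4 was at 12.0, 11.3 and 9.64 CPM and then 40.8, 42.3 and 46.0 CPM (log2 fold change 1.96, SE 0.17, adjusted p = 1.57e-06), with little spread. Gstm1 was at 34.4, 19.7 and 21.7 CPM and then 63.6, 68.3 and 57.2 CPM (log2 fold change 1.31, SE 0.21, adjusted p = 0.000218). The Gsta genes are close copies, and reads may be split among them.

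Of 13 iron genes 3 rose, all in storage and control, and 1 fell, against 6.76% and 3.74% of all known genes. Hmox1, which splits heme, went from 45.6, 104 and 64.3 CPM to 209, 253 and 187 CPM (log2 fold change 1.61, SE 0.25, adjusted p = 0.000162). Ftl1, the light chain of ferritin, went from 2383, 2087 and 2127 CPM to 3672, 4058 and 3810.0 CPM (log2 fold change 0.81, SE 0.09, adjusted p = 8.67e-06). The heavy chain Fth1 went from 3703, 3099 and 2667 CPM to 4551, 4913 and 4654 CPM (log2 fold change 0.58, SE 0.11, adjusted p = 0.000842), and its known-gene adjusted p was 0.0959 without control replicate 3. Slc39a14, a metal importer, fell from 29.0, 33.0 and 34.3 CPM to 20.1, 20.6 and 18.03 CPM (log2 fold change -0.71, SE 0.15, adjusted p = 0.00203). Of 16 ferroptosis genes, 2 rose (Sat1 and Slc7a11) and 2 fell (Chac1 and Cisd1), against the same shares of all known genes. Slc7a11, the cystine importer, was at 10.1, 30.0 and 16.6 CPM and then 46.6, 44.8 and 28.0 CPM (log2 fold change 1.09, SE 0.29, adjusted p = 0.00822), with a known-gene adjusted p of 0.146 without 12 Gy 48 h replicate 1. Chac1, which degrades glutathione, was at 93.3, 51.7 and 80.6 CPM and then 39.0, 34.4 and 34.8 CPM (log2 fold change -1.06, SE 0.19, adjusted p = 0.000459). Gpx4, the lipid peroxidase, was called in the all-gene fit only (733, 655 and 647 CPM, then 851, 871 and 896 CPM, known-gene adjusted p = 0.15).

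Some of these genes also differed between the doses at 48 h. In the known-gene fit 10 of 33 NRF2 genes were higher after 12 than after 4 Gy at 48 h and none lower. Over all known genes 2.91% were higher and 3.22% lower in that contrast. Between the times, 4 of the 33 were higher and 7 lower at 48 h than at 24 h, against 11.1% and 12.6% of all known genes. Gsta1 was at 7.79, 2.71 and 6.74 CPM after 4 Gy and higher after 12 Gy by a log2 fold change of 2.96 (adjusted p = 0.0028). At 24 h it was at 30.0, 38.6 and 48.7 CPM, overlapping the 48 h values. Hmox1 was at 85.4, 45.4 and 81.2 CPM after 4 Gy, overlapping the controls, and higher after 12 Gy by 1.62 (adjusted p = 0.00351). Its 24 h values of 298, 363 and 354 CPM lay above the 48 h values, a difference of -0.64 (adjusted p = 0.0484).

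Chaperones of the ER rose in part. Of 29 ER genes tested, 21 were called higher in the all-gene fit and 12 in both fits, with medians of 0.68 and 0.49. The 12 were 9 of 16 chaperones and folding enzymes and 3 of 8 degradation genes, and none of 5 sensors and factors. With 1 library left out, the known-gene count of ER genes higher ranged from 7 (without 12 Gy 48 h replicate 2) to 13, with 8 without control replicate 1 or 3, and that of chaperones from 5 (without 12 Gy 48 h replicate 2) to 10. Calr, a calcium-binding chaperone that also loads class I, stood at 297, 411 and 359 CPM in the controls and 626, 663 and 571 CPM after 12 Gy (log2 fold change 0.80, SE 0.12, adjusted p = 0.000136). Creld2 stood at 36.3, 32.8 and 30.3 CPM and then at 64.4, 71.8 and 61.7 CPM (log2 fold change 0.99, SE 0.15, adjusted p = 0.00013). Sdf2l1, a partner of the chaperone BiP, stood at 15.3, 18.2 and 16.6 CPM and then at 37.7, 36.2 and 28.2 CPM (log2 fold change 1.03, SE 0.16, adjusted p = 0.000131). All 3 were apart from their controls, and each was also higher than at 24 h (log2 fold changes 0.93, 1.01 and 0.77, adjusted p = 4.48e-05, 0.000129 and 0.00144) and than after 4 Gy (0.69, 0.80 and 0.81, adjusted p = 0.00628, 0.00903 and 0.0102). Pdia3, a disulfide isomerase, went from 203, 207 and 205 CPM to 318, 338 and 365 CPM (log2 fold change 0.73, SE 0.10, adjusted p = 6.24e-05). Hspa5 (BiP) was uneven in both groups (419, 999 and 966 CPM, then 1546, 1421 and 927 CPM) and was not called in the known-gene fit (adjusted p = 0.16). Atf6b, an ER sensor, fell from 36.1, 26.9 and 30.3 CPM to 25.6, 20.4 and 23.3 CPM (log2 fold change -0.43, SE 0.16, adjusted p = 0.0427), with a known-gene adjusted p of 0.0638 without 12 Gy 48 h replicate 2.

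Of 24 genes of the integrated stress response, which raises amino acid supply through Atf4, 2 rose and 5 fell. Over all known genes 6.76% rose and 3.74% fell. Atf4 was at 373, 400.2 and 435 CPM and then 414, 442 and 379 CPM, and was not called. Pycr1, an enzyme of proline synthesis, fell from 22.99, 19.2 and 26.3 CPM to 13.1, 10.2 and 7.58 CPM (log2 fold change -1.15, SE 0.25, adjusted p = 0.00227). Mthfd2, a mitochondrial folate enzyme, fell from 197, 122 and 154 CPM to 114, 101 and 104 CPM (log2 fold change -0.57, SE 0.14, adjusted p = 0.00601). Nupr1, a stress-induced nuclear protein, fell from 315, 293 and 342 CPM to 236, 238 and 228 CPM (log2 fold change -0.44, SE 0.10, adjusted p = 0.00354). The irradiated libraries lay below the controls for all 3. Against them, the amino acid transporter Slc7a3 rose from 1.93, 2.05 and 2.41 CPM to 6.80, 5.86 and 7.32 CPM (log2 fold change 1.64, SE 0.32, adjusted p = 0.000957).

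Of 15 heat shock genes tested, 7 rose and 2 fell. Without 12 Gy 48 h replicate 2 the known-gene fit called 3 higher, and 5 or 6 with any other library left out. Hspa8, the constitutive cytosolic chaperone, went from 165, 145 and 124 CPM to 340.2, 380.3 and 397 CPM (log2 fold change 1.36, SE 0.13, adjusted p = 3.63e-06). Hsp90ab1 went from 830.1, 731 and 627 CPM to 1118, 1136 and 1308 CPM (log2 fold change 0.70, SE 0.12, adjusted p = 0.000283). Bag3, a co-chaperone that steers proteins to autophagy, went from 9.03, 12.8 and 11.8 CPM to 26.7, 27.8 and 22.5 CPM (log2 fold change 1.20, SE 0.18, adjusted p = 0.000132). Those 3 serve the cytosol, and their groups did not overlap. The 2 that fell, Hspe1 and Hspd1, form the mitochondrial chaperonin and lie side by side in the genome. Hspe1 was at 1209, 1045 and 1199 CPM and then 905, 915 and 821 CPM (log2 fold change -0.39, SE 0.09, adjusted p = 0.004). Hspd1 was at 739, 939 and 973 CPM and then 781, 712 and 717 CPM (log2 fold change -0.26, SE 0.10, adjusted p = 0.046), with overlap and an all-gene adjusted p of 0.295 without control replicate 3. At 24 h Hsp90ab1 stood higher, at 1650.3, 1864 and 1995 CPM, and differed from 48 h by -0.63 (adjusted p = 0.000762).

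Histone genes and lysosomal hydrolases rose in part. Of 14 histone genes tested (66 listed), 7 were called higher in the all-gene fit and 5 in both fits, and 3 to 7 in the known-gene fit when 1 library was left out (3 without control replicate 3 or 12 Gy 48 h replicate 1). Hist1h2bc was at 14.6, 16.6 and 6.70 CPM in the controls and 39.5, 57.3 and 60.6 CPM after 12 Gy (log2 fold change 2.04, SE 0.27, adjusted p = 4.37e-05). The linker histone Hist1h1c was at 8.38, 8.45 and 3.48 CPM and then 23.3, 28.5 and 25.9 CPM (log2 fold change 1.91, SE 0.29, adjusted p = 0.00015). Both rose clear of the controls, of which replicate 3 was the lowest, and histone genes are close copies between which reads can be split. Of 53 lysosomal genes 11 rose, 8 of them among 26 hydrolases and 3 among 24 membrane and pump genes, and none fell in both fits. Without 1 library the count in the known-gene fit ranged from 4 (control replicate 3 or 12 Gy 48 h replicate 2) to 10, with 7 without 12 Gy 48 h replicate 1. Ctsd, an aspartic protease, went from 225, 231 and 220.2 CPM to 356, 400.4 and 371 CPM (log2 fold change 0.74, SE 0.11, adjusted p = 7.72e-05). Ctsl, a cysteine protease, went from 1626, 2142 and 1879 CPM to 2965, 3292 and 3778 CPM (log2 fold change 0.83, SE 0.13, adjusted p = 0.000171). Ctsa, which protects other hydrolases, went from 43.0, 47.4 and 38.3 CPM to 77.7, 84.8 and 84.2 CPM (log2 fold change 0.94, SE 0.13, adjusted p = 5.39e-05). Of 20 autophagy genes 2 rose, against 6.76% of all known genes: Map1lc3b and Atg7 (log2 fold changes 0.60 and 0.70). Their known-gene adjusted p was 0.101 without 12 Gy 48 h replicate 2 and 0.0896 without 12 Gy 48 h replicate 1, respectively.

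Genes for ribosomes and the respiratory chain were called lower in larger number, by small amounts. Of 83 cytosolic ribosomal protein genes, 28 were called lower in the all-gene fit and 62 in the known-gene fit, with medians of -0.17 and -0.35. With 1 library left out these counts ranged from 11 to 31 and from 45 to 59, with 11 to 15 lower in the all-gene fit without control replicate 3 or any 1 of the 12 Gy 48 h libraries. Of 77 mitochondrial ribosomal protein genes 13 and 23 were lower, and of 79 nuclear genes of oxidative phosphorylation 14 and 35, while none of the 12 mitochondrially encoded genes of the chain was called in either fit. When 1 library was left out, the all-gene counts ranged from 4 (without 12 Gy 48 h replicate 2) to 11 for the mitochondrial ribosomal genes and from 6 (without 12 Gy 48 h replicate 1) to 15 for oxidative phosphorylation, with 4 to 8 of either list without control replicate 3 or any 1 of the 12 Gy 48 h libraries. The known-gene counts ranged from 17 to 25 and from 19 (without 12 Gy 48 h replicate 2) to 37. The size of these groups' change was near the shift between the scalings, so the number of calls turned on it. Short genes stood lower in general: the shortest quartile of known genes (204 to 2886 nt of exon) had a known-gene median of -0.09 with 15.9% called lower, the longest quartile 0.07 with 3.06%, and the shortest quartile outside these 3 lists -0.07 with 13.3%. The median exon length was 1770 nt for the cytosolic ribosomal, 2533 nt for the mitochondrial ribosomal and 1675 nt for the oxidative phosphorylation genes, against 4545 nt for all known genes, and read-weighted exon length was 3125 to 3269 nt in the controls and 3356 to 3357 nt after 12 Gy. The part of length in these falls was not tested.

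The ribosomal and respiratory chain genes given next were chosen by low adjusted p among members called in both fits. They do not stand for their lists. Rpl22l1, a variant of a large-subunit protein, was at 1969.9, 1876 and 2149 CPM in the controls and 1308, 1245 and 1132 CPM after 12 Gy (log2 fold change -0.70, SE 0.08, adjusted p = 1.81e-05). Rps26, of the small subunit, was at 5803, 4881 and 5466 CPM and then 4323, 4275 and 4325 CPM (log2 fold change -0.32, SE 0.07, adjusted p = 0.00223). Uqcrq, of respiratory complex III, was at 1089, 1067 and 1155 CPM and then 858, 809 and 706 CPM (log2 fold change -0.48, SE 0.10, adjusted p = 0.00131). Each fell clear of the controls. Mrpl23, a mitochondrial ribosomal protein, was at 123.1, 119 and 128 CPM and then 84.3, 79.7 and 84.2 CPM (log2 fold change -0.58, SE 0.11, adjusted p = 0.000949). Of 40 ribosome biogenesis genes 5 fell and none rose. Without 12 Gy 48 h replicate 2 there were 2 lower in the all-gene fit, and 3 without control replicate 2 or 3 or 12 Gy 48 h replicate 1. Nop10, a part of the particle that modifies ribosomal RNA, was at 370.0, 258 and 307 CPM and then 192, 184 and 207 CPM (log2 fold change -0.68, SE 0.12, adjusted p = 0.000514). Nme1, a nucleoside diphosphate kinase among the growth genes, was at 671, 579 and 678 CPM and then 430.4, 391 and 435 CPM (log2 fold change -0.62, SE 0.10, adjusted p = 0.000237). Myc was called lower in the known-gene fit alone (70.5, 53.01 and 56.5 CPM, then 54.2, 51.4 and 50.2 CPM). At 24 h, Nme1 was at 721, 749 and 857 CPM, above the controls, and differed from 48 h by -0.89 (adjusted p = 1.19e-05).

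**Figure D3:**
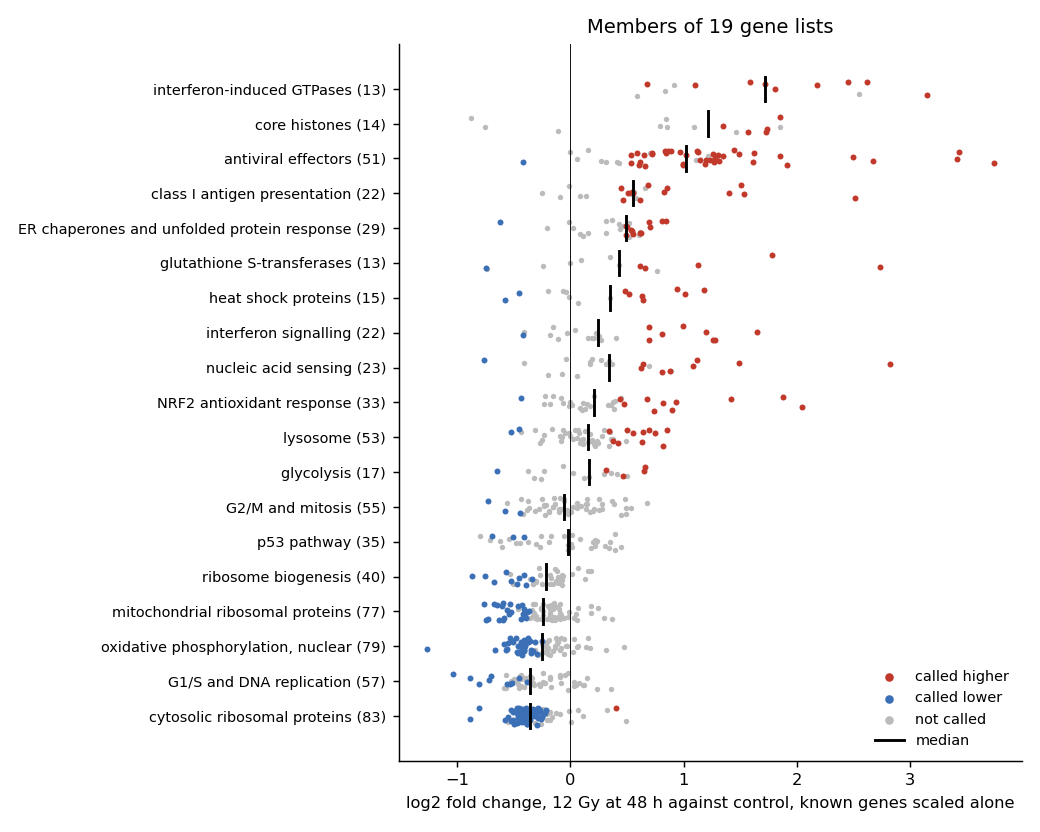
Log2 fold changes of the members of 19 gene lists in the known-gene fit, 1 point per gene, red where called higher, blue where called lower and grey where not called, with a bar at each list's median. The antiviral effectors have a median of 1.02 and the cytosolic ribosomal protein genes one of -0.35.

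A few replication genes fell. Of 57 genes of G1/S and DNA replication 6 fell and none rose, and 10 were called lower in the known-gene fit. Without control replicate 1, or without 12 Gy 48 h replicate 1 or 2, 3 were called lower in the all-gene fit, and the known-gene count ranged from 4 (without 12 Gy 48 h replicate 2) to 13, with 5 without control replicate 1. The summed level of the list was 3811 CPM in that control, 2880 and 2939 CPM in the other controls and 2506 to 3071 CPM after 12 Gy. Dut, which removes dUTP, went from 274, 136 and 176 CPM to 129, 111 and 120.2 CPM (log2 fold change -0.70, SE 0.18, adjusted p = 0.00774). Rpa3, of the single-strand binding complex, went from 265, 221 and 227 CPM to 161, 142 and 161 CPM (log2 fold change -0.62, SE 0.11, adjusted p = 0.000583). Both genes fell without overlap of the groups. Of 55 genes of G2/M and mitosis, 8 were called higher in the all-gene fit and none in both fits, and 2 fell (Cenpf and Spc25). Over all known genes 18.2% were called higher in the all-gene fit and 3.74% fell. Mki67, a marker of cycling cells, was at 27.9, 30.5 and 24.4 CPM and then 23.8, 28.5 and 28.5 CPM, with overlap and no call. It was lower at 24 h, at 15.4, 18.7 and 14.6 CPM, a difference of 0.73 from 48 h (adjusted p = 0.00318).

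The p53 pathway held no rise that passed both fits. Of 35 genes 5 were called higher in the all-gene fit, against 18.2% of all known genes. None was called higher in the known-gene fit, and 1 fell. Cdkn1a, the p53-induced inhibitor of cyclin-dependent kinases, was at 346, 430.5 and 550.0 CPM and then 421, 430.2 and 416 CPM, with overlap and no call. Mdm2, which degrades p53, was at 109.6, 154 and 124 CPM and then 187, 215 and 158 CPM, called in the all-gene fit only (known-gene adjusted p = 0.103). Compared with 24 h, when Mdm2 stood at 87.6, 84.9 and 81.7 CPM, it was higher at 48 h by 1.14 (adjusted p = 2.52e-05). The gene that fell, Eda2r, a death receptor, was at 15.0, 17.2 and 16.6 CPM and then 10.99, 10.4 and 12.8 CPM (log2 fold change -0.51, SE 0.16, adjusted p = 0.025), and its all-gene adjusted p was 0.129 without 12 Gy 48 h replicate 2.

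Repair and death genes gave few calls. Xrcc6 (Ku70), which binds broken DNA ends and overlaps Desi1, fell from 66.6, 51.7 and 59.5 CPM to 37.7, 39.2 and 36.3 CPM (log2 fold change -0.65, SE 0.14, adjusted p = 0.00191), the only fall in both fits among 14 end-joining genes. Trp53bp1, a platform at DNA breaks that overlaps Tubgcp4, rose from 9.46, 8.45 and 8.04 CPM to 17.5, 22.2 and 14.4 CPM (log2 fold change 1.05, SE 0.20, adjusted p = 0.000928), with a known-gene adjusted p of 0.0524 without 12 Gy 48 h replicate 2. Of 32 genes of homologous recombination and the Fanconi pathway none rose in both fits and 1 fell (Rad51ap1). The shares over all known genes were 6.76% and 3.74%. Casp1, the inflammasome protease, rose from 12.7, 17.9 and 14.2 CPM to 29.8, 25.2 and 26.7 CPM (log2 fold change 0.87, SE 0.16, adjusted p = 0.000751). Ripk1, a kinase of necroptosis that overlaps Serpinb6a, rose from 3.65, 7.94 and 6.43 CPM to 12.8, 15.0 and 10.98 CPM (log2 fold change 1.12, SE 0.25, adjusted p = 0.00251), with a known-gene adjusted p of 0.0773 without 12 Gy 48 h replicate 2. Its partner Ripk3 and the adaptor Pycard had 0 reads in all 6 libraries. Bak1, which opens the outer mitochondrial membrane and overlaps Ggnbp1, rose from 40.6, 45.3 and 48.8 CPM to 69.1, 62.7 and 65.1 CPM (log2 fold change 0.55, SE 0.12, adjusted p = 0.00236), with a known-gene adjusted p of 0.149 without 12 Gy 48 h replicate 1. Bax, its close relative, was not called (245, 243 and 273 CPM, then 246, 246 and 212 CPM).

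Matrix and signalling genes changed one by one. Of 26 matrix and mesenchymal genes 7 rose and 2 fell, against 6.76% and 3.74% of all known genes. The known-gene count higher was 4 without 12 Gy 48 h replicate 2 or 3, and the all-gene count lower was 1 whichever library was left out. Timp1, an inhibitor of matrix proteases, fell from 414, 375 and 509 CPM to 229.7, 198 and 204 CPM (log2 fold change -1.04, SE 0.12, adjusted p = 1.34e-05). At 24 h it stood above the controls, at 515, 573 and 584 CPM, and differed from 48 h by -1.40 (adjusted p = 1.02e-06). Plat, tissue plasminogen activator, rose from 2.58, 3.33 and 3.21 CPM to 8.90, 10.95 and 8.10 CPM (log2 fold change 1.62, SE 0.25, adjusted p = 0.000138). Sparc, a matrix glycoprotein, rose from 115, 112 and 129 CPM to 176, 186 and 223 CPM (log2 fold change 0.72, SE 0.11, adjusted p = 0.000161). Vim rose from 957, 491 and 505 CPM to 1247, 1141 and 1603 CPM (log2 fold change 1.03, SE 0.21, adjusted p = 0.00131). Control replicate 1 was the highest control for Vim and remained below the irradiated libraries.

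Of 15 tested genes of TGF-beta and BMP signalling, 4 rose and none fell in both fits: Smad4 and 3 Id genes, targets of bone morphogenetic protein signalling that block basic helix-loop-helix factors. Leaving out 1 library gave known-gene counts from 2 (without control replicate 3 or 12 Gy 48 h replicate 3) to 5. Id1 was at 22.3, 17.4 and 13.1 CPM and then 35.1, 33.1 and 73.7 CPM (log2 fold change 1.41, SE 0.29, adjusted p = 0.0015). Id2 was at 16.3, 9.22 and 9.38 CPM and then 29.0, 28.5 and 59.3 CPM (log2 fold change 1.72, SE 0.30, adjusted p = 0.00041). Id3 was at 36.5, 16.6 and 19.02 CPM and then 46.3, 46.6 and 103 CPM (log2 fold change 1.42, SE 0.31, adjusted p = 0.0024), with a known-gene adjusted p of 0.0703 without 12 Gy 48 h replicate 3. In all 3 genes replicate 3 was the highest irradiated library, well above the other pair. Of 12 genes of the regenerative fetal-like programme 3 rose. Ly6a (Sca-1), which is also interferon-inducible, was at 6.88, 2.56 and 3.75 CPM and then 38.2, 42.5 and 71.9 CPM (log2 fold change 3.49, SE 0.34, adjusted p = 3.61e-06). Clu, an extracellular chaperone, was at 5.16, 6.66 and 4.55 CPM and then 12.0, 20.1 and 18.8 CPM (log2 fold change 1.63, SE 0.25, adjusted p = 0.000134). Of 18 YAP targets tested, 1 rose (Ccn2) and 1 fell (F3), against 6.76% and 3.74% of all known genes. Ankrd1 was called in neither fit and Ccn1 in the all-gene fit only. Ccn2 was at 6.23, 2.82 and 3.48 CPM and then 8.11, 13.0 and 21.95 CPM (log2 fold change 1.74, SE 0.39, adjusted p = 0.0029), with a known-gene adjusted p of 0.0715 without 12 Gy 48 h replicate 3.

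Glycolytic genes were higher than in the controls for 4 of 17 in both fits, and lower than at 24 h for 12 of 17 in the known-gene fit. Over all known genes 6.76% rose against the controls and 12.6% were lower at 48 h than at 24 h. With 1 library left out, the count above the controls in the known-gene fit ranged from 1 (without control replicate 3, 12 Gy 48 h replicate 2 or replicate 3) to 5, and was 2 without control replicate 2 or 12 Gy 48 h replicate 1. Aldoa, fructose-bisphosphate aldolase, was at 429, 329 and 298 CPM in the controls and 577, 633 and 683 CPM 48 h after 12 Gy (log2 fold change 0.84, SE 0.13, adjusted p = 0.000178). At 24 h it was at 810.0, 926 and 984 CPM, a difference of -0.52 (adjusted p = 0.00655). Ldha, lactate dehydrogenase, was not called against the controls (1099, 663 and 824 CPM, then 751, 754 and 846 CPM), was at 1459, 1550.4 and 1865 CPM at 24 h, and differed between the times by -1.05 (adjusted p = 5.37e-05).

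**Figure D4:**
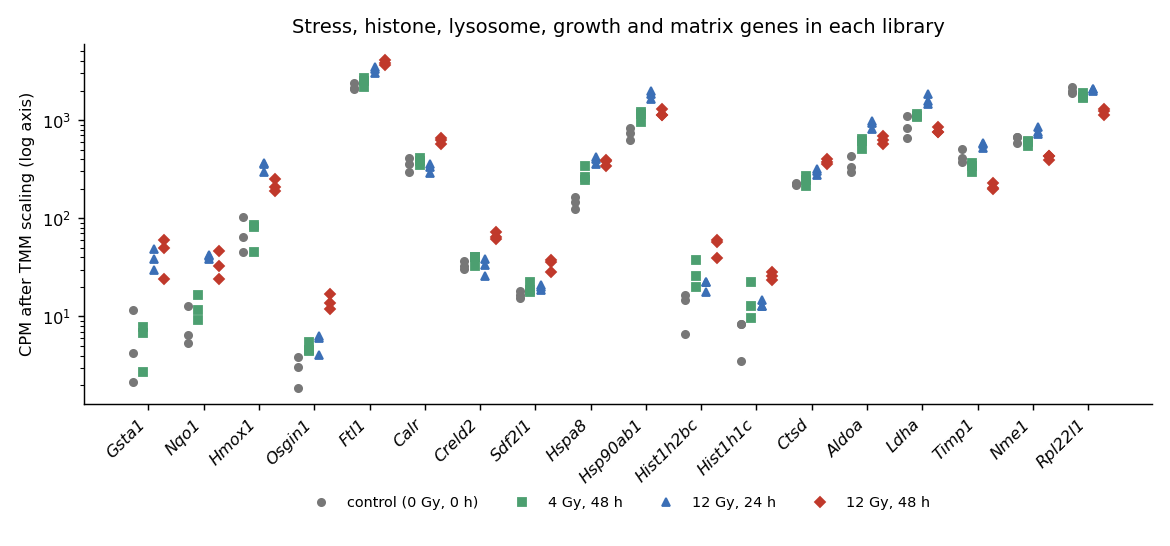
CPM on a log axis for 18 genes of the antioxidant, ER, heat shock, histone, lysosome, glycolysis and growth lists in every library of the 4 groups, 1 point per library. Hmox1 lies at 45.6 to 104 CPM in the controls, 187 to 253 CPM 48 h after 12 Gy and 298 to 363 CPM at 24 h.

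The largest falls among known genes were in genes of low level. Olfr889, an olfactory receptor gene, was at 8.38, 41.0 and 45.01 CPM in the controls and 0.785, 1.78 and 0 CPM after 12 Gy, and Olfr655 at 7.09, 5.38 and 7.23 CPM and then 1.57, 1.27 and 0.523 CPM. Cdsn, which joins cells of cornified epithelium, was at 48.4, 36.1 and 58.1 CPM and then 21.98, 15.5 and 6.27 CPM (log2 fold change -1.70, SE 0.31, adjusted p = 0.000638). Bpifc, a lipid-binding protein, was at 8.60, 11.3 and 12.6 CPM and then 3.66, 4.33 and 1.31 CPM (log2 fold change -1.78, SE 0.40, adjusted p = 0.00279). The values fell in every irradiated library of these 4 genes. Wdr63, an axonemal dynein chain, was at 8.17, 13.3 and 10.4 CPM and then 2.35, 3.06 and 4.44 CPM (log2 fold change -1.68, SE 0.29, adjusted p = 0.000388). Dgat2, which completes triglyceride synthesis, was at 22.3, 16.4 and 19.3 CPM and then 9.42, 6.88 and 7.84 CPM (log2 fold change -1.27, SE 0.21, adjusted p = 0.000298). Avil, which overlaps Tsfm, was at 9.88, 21.5 and 21.2 CPM and then 6.54, 7.90 and 2.09 CPM (log2 fold change -1.65, SE 0.41, adjusted p = 0.00554). Dgat2 was also low at 24 h (8.49, 10.7 and 9.04 CPM) and Avil lower still (1.06, 0.276 and 2.33 CPM). The others among the 12 largest falls were Evi2a, Zbtb45, Armcx5, Taf7l and Pla2g2e, with log2 fold changes from -1.67 to -1.25. Of these, Armcx5, Taf7l and Pla2g2e lost the call with 1 library left out (known-gene adjusted p 0.0805 without 12 Gy 48 h replicate 2, 0.0808 without control replicate 3 and 0.0508 without control replicate 3). Among the 12 largest rises, Usp50, which overlaps Usp8, had 0 reads in all 3 controls and 5.49, 8.91 and 26.7 CPM after 12 Gy, so no fold is given.

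Of 379 long noncoding loci, 33 (8.71%) were called higher and 72 (19%) lower in the all-gene fit, near the 20.2% lower and below the 12.9% higher of all genes, and they have no known-gene value. Without control replicate 3 the lower calls were 45. Zfas1, a host transcript of small nucleolar RNAs, was at 1184, 1559.5 and 1986 CPM in the controls and 950.4, 920.2 and 821 CPM after 12 Gy (log2 fold change -0.81, SE 0.15, adjusted p = 0.000674). Snhg12, another such host, was at 165, 192 and 234 CPM and then 127, 124 and 90.4 CPM (log2 fold change -0.79, SE 0.18, adjusted p = 0.00275). Snhg18 went the other way, from 43.8, 52.5 and 46.6 CPM to 76.7, 85.1 and 68.2 CPM (log2 fold change 0.69, SE 0.17, adjusted p = 0.00476). All 3 were clear of the controls. Among new loci, those carrying the KEGG entry K11969 were lower for 1936 and higher for 28 of 3344 (median -0.96), and those with no database match lower for 45 and higher for 27 of 235 (median 0.03).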

How the data were processed

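RNA-seq read counts per gene were analysed for 12 libraries of MODE-K cells in 4 groups of 3, with the groups taken from the sample labels. The deposited values are raw counts that the authors made, with adapters trimmed by cutadapt 1.9 and reads checked with FastQC per the submitters' processing notes. The aligner, counter, genome build, annotation and strand setting were not given in the sources used here, so overlapping genes and close copies are uncertain. Of 33636 lines in the deposited count table, 11 hold overflow of annotation text and name no gene, and were left out. The remaining 33625 genes are 22036 known genes, 10995 new loci and 594 long noncoding loci. Symbols of known genes were taken from a gene name table by identifier (22022 matched), because 27 deposited symbols had been turned into dates. Library totals ran from 3616416 to 4831641 reads, which limits the precision of genes of a few CPM. The authors' deposited test results were not used.

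Genes were filtered by filterByExpr and scaled by TMM, and tested with edgeR 4.0.16 (quasi-likelihood F test, two-sided) on group means over all 12 libraries (8 residual degrees of freedom, biological coefficient of variation 0.144), with Benjamini-Hochberg adjustment over the 15086 genes tested and calls at an adjusted p under 0.05. Known genes were also filtered, scaled and tested alone (9816 genes, coefficient of variation 0.125). DESeq2 1.42.0, run in R 4.3.3 with limma 3.58.1, was an alternative. Other alternatives were RLE scaling, scaling on known genes, other filters, a replicate block, a fit to only the libraries compared, and each library left out. The fit was tested on simulated data. It recovered 4 of 50 genes changed 1.5-fold, 28 of 50 changed 2-fold and 49 of 50 changed 4-fold, with 6 false calls among 14510 genes tested. A gene that was not called may therefore still have changed, even by 2-fold. The simulated counts had the same spread for every gene and changes in random directions. They lacked the one-sided fall of the new loci, so the false calls there give no rate for these data. Genes named are the 12 largest rises and 12 largest falls among known genes called in both fits with no overlap of groups and a mean of at least 5 CPM in the higher group, up to 4 called members per list and direction, marked genes of each list, and up to 3 long noncoding genes per direction with at least 1 CPM. Results of a few genes are not reported here. Lists were described by counts and medians. The members and the 50 gene lists and 5 marker lists were chosen with earlier results of these data known. Exon lengths and overlaps came from the GENCODE vM21 annotation, promoter sequences and coordinates from RefSeq GRCm38.p6, and plots were drawn with matplotlib 3.10.9. No pair of libraries agreed within sampling noise.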

Additional observations from a re-analysis of the deposited data

Results flagged for a closer look

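For 11 named genes the irradiated libraries stood on opposite sides of the controls at 24 h and at 48 h after 12 Gy, each called in both fits. The difference between the times was tested directly, and both comparisons with the controls share the control libraries. A call of that difference in both fits was part of the rule that flagged these genes, so its adjusted p is no separate check. Each value here is the log2 difference of 48 h from 24 h in the all-gene fit. Interferon signalling and effector genes were lower than the controls at 24 h and higher at 48 h: Irf7 by 2.59, Usp18 by 2.33, Oas2 by 2.12, Stat2 by 2.00 and Irgm1 by 1.57. The RNA sensor regulator Dhx58 differed by 2.72, from 2.12, 4.41 and 2.33 CPM at 24 h to 19.6, 19.9 and 19.3 CPM at 48 h, with the controls at 6.45, 9.99 and 8.04 CPM. Among class I genes, H2-K1 differed by 1.53, the peptide transporter subunit Tap1 by 1.49 and Tap2 by 1.12. The known-gene calls of Tap1 and Tap2 against the controls at 48 h were lost with control replicate 3 left out. Usp18 stood at 29.2, 33.1 and 39.96 CPM at 24 h and 154, 158 and 201 CPM at 48 h, against 69.0, 95.5 and 61.4 CPM in the controls.

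In the other direction, S100a7a, an S100 protein, differed by -1.50 and Plaur, the urokinase receptor, by -1.04. S100a7a was at 38.0, 24.8 and 30.3 CPM in the controls, 57.9, 59.5 and 51.9 CPM at 24 h and 14.4, 20.4 and 25.1 CPM at 48 h. Plaur was at 178, 159.8 and 147 CPM, 251, 252 and 293 CPM and 137, 115 and 135 CPM. The falls of both genes at 48 h lost the all-gene call when 1 library was left out, with adjusted p of 0.109 without 12 Gy 48 h replicate 1 and 0.252 without 12 Gy 48 h replicate 2. Adjusted p for the difference between the times ran from 8.33e-07 (Usp18 and Irf7) to 3.21e-05 (Tap2 and S100a7a).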

How the results depend on the processing

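Among the named genes no called result changed sign under the alternatives run, and 65 values of uncalled ones did. The known-gene fits with 1 library left out were not part of this comparison of signs. The naming rule favoured genes called in the same direction in both fits, which limits what the comparison can show. Known genes alone gave 1453 calls in place of 4995, of which 664 were higher (1790 in the all-gene fit) and 789 lower (367), and 2330 in place of 4825 between 48 h and 24 h. Scaling on known genes with all tested gave 840 known genes higher and 974 lower, and DESeq2 gave 1143 higher. Without the filter on low counts there were 215 known genes lower, 224 new loci higher (122 with it) and 1113 calls between 12 and 4 Gy (707 with it). With 1 library left out, known genes called lower ranged from 160 (12 Gy 48 h replicate 2) to 348, with 196 without control replicate 3 and 236 without 12 Gy 48 h replicate 1. Calls between 12 and 4 Gy ranged from 77 (12 Gy 48 h replicate 2) to 431 (4 Gy replicate 1), with 248 and 388 without 12 Gy 48 h replicates 1 and 3 and 412 and 200 without 4 Gy replicates 2 and 3. Known genes alone, in alternatives chosen after seeing the data, ranged from 356 to 663 higher and from 412 to 789 lower, the lowest without 12 Gy 48 h replicate 2, and with 376 and 490 without control replicate 3. Fewer libraries were fitted in each of these. For the other changes the cause was not tested. Leaving out 1 library moved all calls to between 3968 and 4872.

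Of 250 named genes tested, 200 were called in the all-gene fit, and the other settings shared between 174 (known genes alone, or without control replicate 3 or 12 Gy 48 h replicate 2) and 200 (RLE scaling) of these calls. Leave-one-out values of single genes in the contrasts with 24 h and 4 Gy were not run. Replicate numbers are shared by the groups, but same-numbered libraries did not deviate together (correlations of -0.1076, 0.1007 and -0.0698), so the numbers are not taken to pair them. With the replicate block 4713 genes were called against the controls, 1647 known genes higher and 342 lower, 116 new loci higher and 2508 lower, 4556 genes between the times and 514 between the doses. At 3616416 to 4831641 reads a library, the weakest genes rest on few reads: Cfb had 1 to 3 reads and Nlrc5 4 to 14 in a control library.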

Other observations

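Several genes outside the naming rule, chosen after their values were seen, rose or fell with both fits and with each library left out. The chemokine Ccl4 was at 6.88, 10.8 and 6.97 CPM in the controls and 41.9, 51.2 and 46.5 CPM 48 h after 12 Gy (log2 fold change 2.51, SE 0.20, adjusted p = 9.62e-07). Sgk1, a kinase induced by glucocorticoids and osmotic stress, was at 34.0, 24.6 and 18.5 CPM and then 78.8, 80.0 and 116 CPM (log2 fold change 1.82, SE 0.24, adjusted p = 3.49e-05). Dusp1, a phosphatase that ends MAP kinase signals, was at 26.2, 20.7 and 16.1 CPM and then 56.3, 74.9 and 84.2 CPM (log2 fold change 1.76, SE 0.21, adjusted p = 1.39e-05). Klf4, a zinc finger factor of differentiated epithelium, was at 34.6, 30.2 and 26.0 CPM and then 65.7, 72.6 and 63.5 CPM (log2 fold change 1.15, SE 0.14, adjusted p = 2.49e-05). Bnip2, which binds BCL2 family proteins, fell from 1262, 1049.7 and 1099 CPM to 641, 615 and 587 CPM (log2 fold change -0.89, SE 0.09, adjusted p = 6.67e-06). Alox8, a lipoxygenase, fell from 45.6, 64.8 and 52.0 CPM to 24.1, 24.7 and 21.95 CPM (log2 fold change -1.19, SE 0.14, adjusted p = 1.77e-05). The groups did not overlap for these 6 genes.

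Some genes that were not called against the controls, also chosen after their values were seen, differed between the times after 12 Gy. Txnip, a glucose-responsive inhibitor of thioredoxin, was at 119, 218 and 321 CPM in the controls, 18.05, 21.8 and 21.9 CPM at 24 h and 224, 243 and 168 CPM at 48 h, a log2 difference of 3.36 between the times (adjusted p = 3.24e-06). Tfrc, the transferrin receptor, was at 9.88, 15.6 and 6.70 CPM, 59.5, 64.5 and 62.1 CPM and 15.2, 15.8 and 15.9 CPM, a difference of -1.99 (adjusted p = 6.89e-06). The inflammatory caspase Casp4 was at 5.59, 27.4 and 8.84 CPM, 1.59, 4.68 and 2.92 CPM and 20.4, 24.2 and 13.1 CPM, a difference of 2.64 (adjusted p = 0.00186). Of 212 zinc finger genes 5 rose and 4 fell, against 6.76% and 3.74% of all known genes. Of 26 cholesterol synthesis genes 1 rose (Mvd) and 1 fell (Pmvk), against the same shares of all known genes. Both lost the known-gene call when 1 library was left out (adjusted p 0.101 without 12 Gy 48 h replicate 3 and 0.0524 without 12 Gy 48 h replicate 3).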
